A study of Sus scrofa with 6 samples.

Results

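Kinesins are motor proteins that move along microtubules or take them apart, and several of them build the mitotic spindle and carry chromosomes during cell division. Centromere proteins sit on the chromosome where the spindle will attach, and kinetochore proteins form the plates that hold the microtubule ends. The genes described here are those whose deposited protein description in a pig embryo RNA-seq table contains the words kinesin-like protein, kinesin heavy chain, centromere protein, centromere-associated protein or kinetochore. The rule found 49 transcript rows of 36 genes among 20523 rows, and no expression value was used to choose them. By role they were 4 rows of 4 spindle kinesins, 10 rows of 6 transport and other kinesins, 19 rows of 13 constitutive centromere proteins, 12 rows of 10 kinetochore proteins, and 4 rows of 3 other proteins (INCENP, CENPJ and CENPV). The rule follows wording and not function: the kinesins it found include motors of neurons and cilia, and it missed mitotic kinesins that the table describes with the words kinesin family member, such as KIF11.

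Spindle assembly is shared work. KIF15 pushes spindle poles apart, KIFC1 pulls toward microtubule minus ends, KIF2A takes microtubules apart at the poles, and CENPE walks chromosomes along microtubules from the kinetochore. The constitutive centromere proteins bind centromeric chromatin through the cell cycle, and the NDC80, MIS12 and SKA complexes connect that platform to microtubules when a cell divides. An embryo that is laying down somites grows by rapid division in nearly every tissue, and RNA of such an embryo pools dividing cells of many kinds.

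The study compared 3 embryos homozygous for the mutant alleles of quantitative trait nucleotides of VRTN (QQ) with 3 wild-type embryos (WT, also written qq). Variants of VRTN, the vertnin gene, go with how many thoracic vertebrae a pig forms, and the comparison asks which transcripts differ between the genotypes. All 6 were Large White pig embryos taken 17.5 to 18.0 days post coitum, total RNA was extracted from each embryo, and genotypes came from extra-embryonic tissue. The labels give no litter, dam or sex, so a p-value here covers only the spread among these 6 embryos, and anything that litters share cannot be told apart from genotype.

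Library depth was 12.2 to 13.5 in units of 1000000 uniquely mapped reads. VRTN itself had next to no reads (2, 0 and 1 for the QQ embryos, 0 for all WT embryos), so it gives no check of the genotype labels. WT replicate 3 stood apart from the rest: on the first principal component of all tested rows, which carried 57.7% of the variance, it scored -61.7, against 10.9, 28.9 and 29.99 in QQ replicates 1 to 3 and -9.13 and 1.00 in WT replicates 1 and 2. Values of the members described in full are therefore given per library below, with further values from fits without WT replicate 3. In RNA of whole embryos, fewer cells of a type and less RNA per cell cannot be told apart. The label embryo was checked against marker lists: the summed level of 5 paraxial mesoderm and somite markers was 43.7 to 58.9 RPKM in QQ libraries and 45.3 to 53.1 RPKM in WT libraries, and that of 3 heart markers was 647 to 777 RPKM in QQ libraries and 697 to 953 RPKM in WT libraries. RPKM is a read count divided by transcript length and by the library's mapped reads, so levels of different transcripts can be set side by side. Marker sums of red cells and endoderm differed widely from embryo to embryo. The 7 erythroid markers summed to 56.3 to 719 RPKM in QQ libraries and 446 to 1480 RPKM in WT libraries, and the 4 yolk sac and hepatic endoderm markers to 23.8 to 460 RPKM in QQ libraries and 14.6 to 211 RPKM in WT libraries. HBZ alone made up nearly all of the erythroid sums, with 54.4 to 710 RPKM in QQ libraries and 440 to 1464 RPKM in WT libraries. AFP was the largest part of the endoderm sums, while ALB stayed at 0.438 to 0.614 RPKM. The 4 trophoblast markers summed to 2.28 to 5.44 RPKM in QQ libraries and 2.88 to 3.65 RPKM in WT libraries. The part of these tissues in the results below was not tested.

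None of the kinesin, centromere and kinetochore rows passed the test between QQ and WT. Of the 49 rows, 40 had enough reads to be tested, in edgeR's quasi-likelihood test on the read counts with TMM scaling (a correction for differences in library composition) and Benjamini-Hochberg adjustment over all 13957 tested rows. At an adjusted p under 0.05, edgeR called 0 of the 40 rows higher and 0 lower, and across all tested rows it likewise called 0 (0%). At an unadjusted p under 0.05, 5 of the 40 rows lay on the higher side and 1 on the lower side, against 11% and 9.29% of all tested rows. DESeq2, a second count test, called 1 of the 40 rows higher (CENPE) and 0 lower, where it called 0.738% of all tested rows higher and 0.0573% lower. The RPKM of QQ and WT libraries did not overlap in 6 rows, all higher in QQ, which is 15% of the members, against 27.9% of all tested rows (18.8% higher and 9.07% lower). These 6 were CENPE, CENPF, KIF2A, CENPV, DSN1 and the 520 bp row of NDC80. After TMM scaling the count was 5 higher and 5 lower, against 15.2% and 14.5% of all tested rows. DSN1 left the first group, and CENPT, SKA1, CENPJ, KIFC1 and the 3543 bp row of KIF13A formed the second.

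Fold changes lay on both sides of 0. On the log2 scale, QQ over WT, 19 of the 40 rows were positive and 21 negative, with a median of -0.03, where all tested rows had a median of -0.0027. Among the classes, the 4 spindle kinesins had a median of 0.29 (3 positive), the 10 tested kinetochore rows 0.06 (7 positive), the 15 tested constitutive centromere rows -0.08 (5 positive), the 4 other rows -0.25 (1 positive) and the 7 tested transport and other kinesin rows -0.35 (3 positive). Without WT replicate 3 these medians were 0.18 for spindle kinesins, 0.05 for kinetochore rows, -0.08 for constitutive centromere rows, -0.12 for the other rows and -0.16 for transport and other kinesins. Without QQ replicate 2 the kinetochore median was -0.02. Across the 40 rows the smallest adjusted p in edgeR was 0.233.

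**Figure D1:**
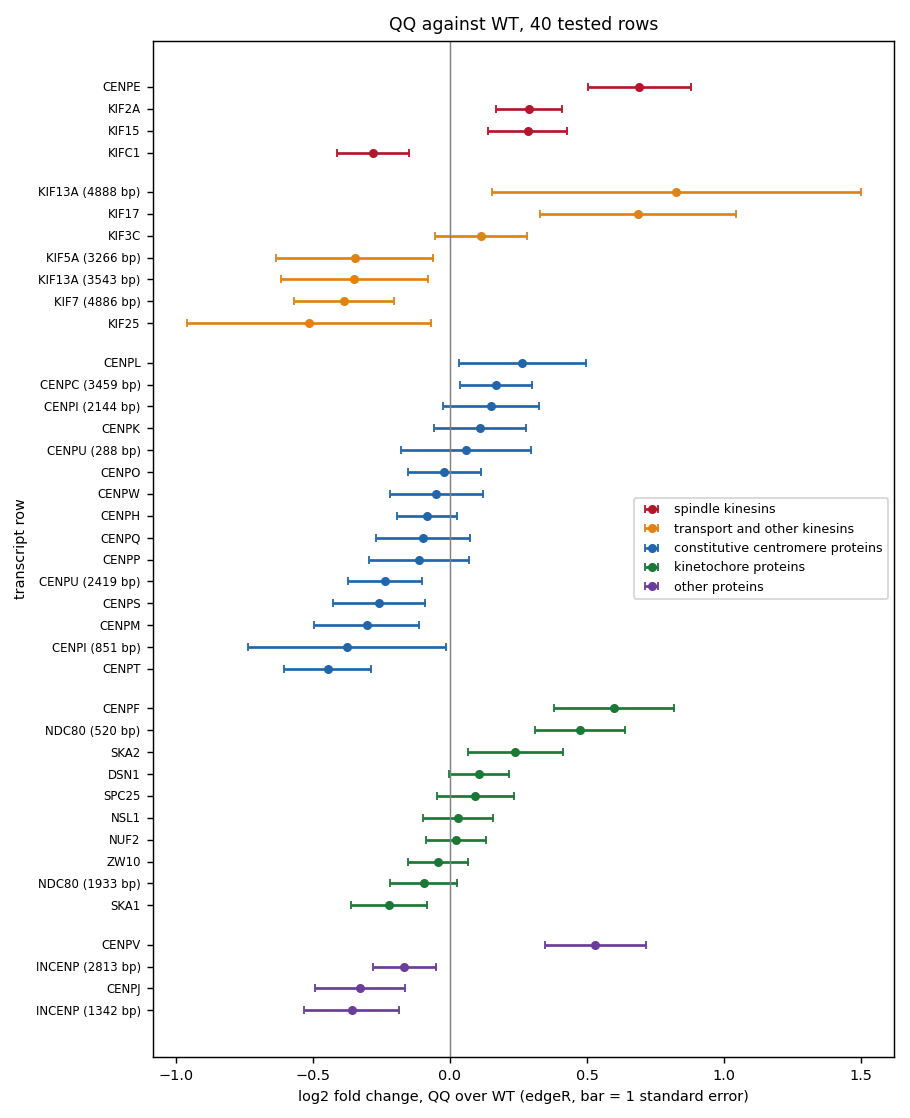
Log2 fold change of QQ over WT from edgeR (horizontal axis, bars are 1 standard error) for the 40 tested transcript rows, grouped by role and sorted within each group. CENPE at 0.69, CENPF at 0.60 and CENPV at 0.53 stand on the right, CENPT at -0.45 leads the left side of the centromere proteins, and the widest bars belong to weakly expressed kinesins such as the 4888 bp row of KIF13A.

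Of the 4 spindle kinesins, CENPE, KIF2A and KIF15 had positive log2 fold changes and KIFC1 a negative one, none past edgeR's threshold. CENPE, the kinetochore motor that brings chromosomes to the spindle equator, had 26.0, 39.0 and 34.3 RPKM in QQ embryos, against 20.4, 23.6 and 13.6 RPKM in WT embryos. Every QQ embryo lay above every WT embryo, and the lowest value was that of WT replicate 3. CENPE averaged 33.1 ± 6.59 RPKM in QQ embryos and 19.2 ± 5.07 RPKM in WT embryos (SD, n = 3 each), with a log2 fold change of 0.69 ± 0.19 (SE) and an adjusted p of 0.233 in edgeR.

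CENPE (transcript ENSSSCT00000032580, 7562 bp) was the single member that DESeq2 called, and only just. Its DESeq2 log2 fold change was 0.70 with an adjusted p of 0.04997. Leaving out 1 library at a time, the DESeq2 adjusted p was 0.00599 without WT replicate 2, 0.0265 without QQ replicate 1 and 0.0357 without WT replicate 3, but 0.125 without WT replicate 1, 0.603 without QQ replicate 2 and 0.663 without QQ replicate 3. The log2 fold change in edgeR stayed positive, from 0.51 without WT replicate 3 to 0.85 without WT replicate 2.

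KIF2A, which removes tubulin from microtubule ends at the spindle poles, had 35.9, 45.2 and 43.9 RPKM in QQ embryos, against 33.05, 35.7 and 27.1 RPKM in WT embryos. The groups did not overlap, but the lowest QQ embryo (35.9) and the highest WT embryo (35.7) were almost level. The log2 fold change was 0.29 ± 0.12, with an unadjusted p of 0.0395 and an adjusted p of 0.235 in edgeR. KIF15, a plus-end motor that helps to keep the spindle bipolar, had 43.3, 59.8 and 48.9 RPKM in QQ embryos, against 40.6, 44.8 and 31.5 RPKM in WT embryos. These groups overlapped, since WT replicate 2 exceeded QQ replicate 1, and the log2 fold change was 0.28 ± 0.14 with an adjusted p of 0.279 in edgeR.

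KIFC1, a minus-end motor that focuses spindle poles, had 26.2, 28.4 and 26.8 RPKM in QQ embryos, against 28.9, 28.4 and 35.01 RPKM in WT embryos. WT replicate 3 was the high library here, and the other 5 lay within a narrow band. The log2 fold change was -0.28 ± 0.13 with an adjusted p of 0.259 in edgeR, and -0.15 without WT replicate 3. Reads covered only 38.95% to 42.4% of this 1782 bp row, by the authors' percent values. A second KIFC1 row of 2214 bp, described as a kinesin family member and so outside the rule, averaged 29.0 ± 1.86 RPKM in QQ embryos and 26.98 ± 0.539 RPKM in WT embryos (SD, n = 3 each), with a log2 fold change of 0.01 ± 0.10. How reads of KIFC1 were shared between its rows is not given in the sources used here, so neither row stands for the whole gene.

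**Figure D2:**
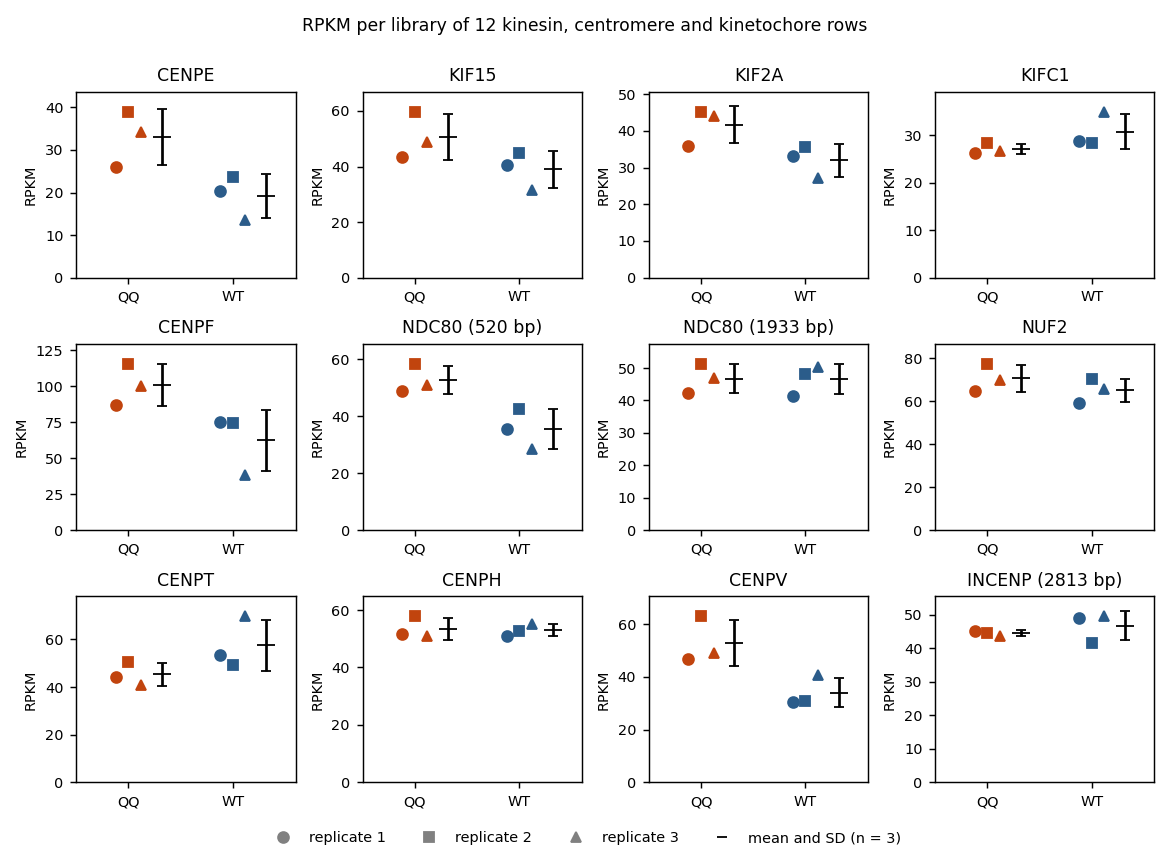
RPKM (vertical axis, starting at 0) of 12 rows in each embryo, with QQ left of WT and the symbol giving the replicate; the bar to the right of each group is its mean and SD (n = 3). CENPE, CENPF, KIF2A, CENPV and the 520 bp row of NDC80 show 3 QQ embryos above 3 WT embryos, while NUF2, CENPH and the 1933 bp row of NDC80 overlap.

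The 3 most abundant members (SKA2, CENPF and NUF2) were kinetochore proteins. Within this class CENPF and a short NDC80 row stood highest in QQ embryos against WT embryos, and the other rows had log2 fold changes within 1 or 2 standard errors of 0. CENPF (transcript ENSSSCT00000016974, 7887 bp) is a large protein of the outer kinetochore that is made in late interphase and destroyed after mitosis. CENPF had 86.5, 115 and 99.9 RPKM in QQ embryos, against 75.2, 74.2 and 37.9 RPKM in WT embryos. All QQ embryos lay above all WT embryos, and WT replicate 3 was far below the other 2 WT embryos. CENPF averaged 100.6 ± 14.4 RPKM in QQ embryos and 62.4 ± 21.2 RPKM in WT embryos (SD, n = 3 each), with a log2 fold change of 0.60 ± 0.22 and an adjusted p of 0.233 in edgeR. Without WT replicate 3 the log2 fold change of CENPF was 0.35. The DESeq2 adjusted p was 0.119 with all libraries. With 1 library left out it was from 0.047 (without WT replicate 2) to 0.663 (without QQ replicate 3), and it passed the threshold in 1 of those 6 fits.

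The NDC80 complex is the main microtubule clamp of the kinetochore, and its subunits NDC80, NUF2 and SPC25 were all measured. NUF2 had 64.8, 77.3 and 69.9 RPKM in QQ embryos, against 59.3, 70.1 and 65.5 RPKM in WT embryos. The groups overlapped, and the log2 fold change was 0.02 ± 0.11 with an adjusted p of 0.913 in edgeR. SPC25, the least abundant of the kinetochore rows tested, averaged 7.34 ± 1.09 RPKM in QQ embryos and 6.44 ± 0.676 RPKM in WT embryos (SD, n = 3 each), with a log2 fold change of 0.09 ± 0.14.

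NDC80 has 2 rows in the table, and they gave different answers. The 520 bp row (ENSSSCT00000023999) had 48.9, 58.4 and 51.0 RPKM in QQ embryos, against 35.7, 42.5 and 28.6 RPKM in WT embryos. The groups did not overlap, and the log2 fold change was 0.47 ± 0.16 with an adjusted p of 0.233 in edgeR. The 1933 bp row (ENSSSCT00000004096) had 42.2, 51.2 and 46.8 RPKM in QQ embryos, against 41.4, 48.1 and 50.3 RPKM in WT embryos. These values were interleaved, and the log2 fold change was -0.10 ± 0.12 with an adjusted p of 0.643 in edgeR.

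Reads on the 520 bp row divided by reads on the 1933 bp row came to 0.312, 0.307 and 0.293 in QQ replicates 1 to 3, against 0.232, 0.238 and 0.153 in WT replicates 1 to 3. The ratio was 0.304 ± 0.00971 in QQ embryos and 0.208 ± 0.0474 in WT embryos (SD, n = 3 each), with no overlap. An exact two-sided permutation test gave p = 0.1, the smallest that 3 against 3 embryos allow, and 0.167 after Benjamini-Hochberg adjustment over the 5 genes with 2 tested rows. Of the other 4 such genes, the ratio did not overlap in INCENP (lower in QQ) and KIF13A (higher in QQ) and overlapped in CENPU and CENPI. Whether the rows of 1 gene are fragments of the same transcript was not tested.

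The SKA complex tracks shrinking microtubule ends at the kinetochore. SKA2 had the highest level of all the members, with 119, 144 and 127 RPKM in QQ embryos, against 109, 126 and 75.3 RPKM in WT embryos. In each of the 6 libraries it stood above CENPF, the next in the order of levels. QQ and WT overlapped, and the SKA2 log2 fold change was 0.24 ± 0.17 with an adjusted p of 0.417 in edgeR. SKA1 averaged 25.2 ± 3.93 RPKM in QQ embryos and 27.4 ± 0.696 RPKM in WT embryos (SD, n = 3 each), with a log2 fold change of -0.22 ± 0.14. SKA3 had no testable row: its 1454 bp row held 2, 5 and 10 reads in QQ libraries and 9, 6 and 6 in WT libraries, and its 1505 bp row 1, 2 and 1 reads in QQ libraries and 4, 1 and 2 in WT libraries. Reads covered at most 9.83% of either SKA3 row.

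DSN1 and NSL1 belong to the MIS12 complex, which joins the NDC80 complex to the inner centromere. DSN1 had 12.01, 14.4 and 12.2 RPKM in QQ embryos, against 11.6, 11.8 and 10.204 RPKM in WT embryos, with no overlap but a log2 fold change of only 0.11 ± 0.11. NSL1 had a log2 fold change of 0.03 ± 0.13, and ZW10, part of the complex that brings dynein to kinetochores, -0.04 ± 0.11. The standard errors of these 3 rows equalled or exceeded their fold changes.

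Constitutive centromere proteins covered a wide range of levels, from a mean over the 6 libraries of 53.2 RPKM for CENPH to 1.32 RPKM for the 851 bp row of CENPI. The 2144 bp row of CENPI, which held more reads, averaged 7.18 RPKM. The RPKM of QQ and WT embryos overlapped in all 15 tested rows, where 27.9% of all tested rows did not overlap. After TMM scaling CENPT did not overlap, lower in QQ, as in 14.5% of all tested rows. The 3 most abundant rows were CENPH, CENPT and CENPS, whose means over the 6 libraries were 53.2, 51.4 and 49.5 RPKM, and their ranges overlapped, so no order among them is drawn. CENPH, a subunit of the CENPH-I-K-M group, had 51.5, 57.8 and 51.1 RPKM in QQ embryos, against 50.9, 52.8 and 55.1 RPKM in WT embryos. Those 6 values were interleaved, and the log2 fold change was -0.08 ± 0.11 with an adjusted p of 0.661 in edgeR.

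CENPT is a histone-fold protein that recruits the NDC80 complex directly. It had 44.4, 50.6 and 40.8 RPKM in QQ embryos, against 53.4, 49.4 and 69.6 RPKM in WT embryos. WT replicate 3 was highest and QQ replicate 2 lay above WT replicate 2, so the groups overlapped in RPKM, though not after TMM scaling. The log2 fold change was -0.45 ± 0.16 with an unadjusted p of 0.0201, the smallest on the lower side among the members, and an adjusted p of 0.233 in edgeR. Without WT replicate 3 it was -0.26. The partners of CENPT in its histone-fold group were nearer to 0: CENPS had a log2 fold change of -0.26 ± 0.17 and CENPW -0.05 ± 0.17.

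Of the remaining CENPH-I-K-M subunits, CENPK averaged 21.3 ± 2.95 RPKM in QQ embryos and 18.5 ± 3.72 RPKM in WT embryos, and CENPM averaged 10.96 ± 1.57 RPKM in QQ embryos and 12.6 ± 2.32 RPKM in WT embryos (SD, n = 3 each). CENPI is spread over 4 rows, and reads covered at most 50.3% of any of them. Its 2144 bp row averaged 7.80 ± 1.61 RPKM in QQ embryos and 6.56 ± 0.708 RPKM in WT embryos, and its 851 bp row, the weakest tested in the class, had 17, 14 and 8 reads in QQ libraries and 18, 12 and 18 in WT libraries. The log2 fold changes of these rows, 0.15 ± 0.18 and -0.38 ± 0.36, differed in sign within their errors.

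The CENPO group is bound to the centromere through CENPH and its partners, and 4 of its 5 tested rows had negative log2 fold changes, none past the threshold. CENPU, through its 2419 bp row, averaged 25.6 ± 3.31 RPKM in QQ embryos and 28.1 ± 2.86 RPKM in WT embryos (SD, n = 3 each), with a log2 fold change of -0.24 ± 0.13 and an adjusted p of 0.318 in edgeR. Log2 fold changes were -0.02 ± 0.13 for CENPO, -0.11 ± 0.18 for CENPP and -0.10 ± 0.17 for CENPQ, and the 288 bp row of CENPU had 0.06 ± 0.24. Reads covered 35.98% to 47.47% of the CENPO row. CENPC, which binds centromeric nucleosomes and holds the rest of the network, averaged 20.9 ± 2.05 RPKM in QQ embryos and 17.4 ± 2.95 RPKM in WT embryos for its 3459 bp row, with a log2 fold change of 0.17 ± 0.13. CENPL, a direct neighbour of CENPC, averaged 8.58 ± 1.27 RPKM in QQ embryos and 6.70 ± 1.98 RPKM in WT embryos, with a log2 fold change of 0.26 ± 0.23. WT replicate 3 was the lowest library for both CENPC and CENPL.

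CENPV, INCENP and CENPJ carry centromere in their descriptions but work elsewhere as well. CENPV, a protein of the inner centromere and the midzone of dividing human cells, had 46.9, 63.0 and 48.9 RPKM in QQ embryos, against 30.7, 31.0 and 40.6 RPKM in WT embryos. The groups did not overlap, and the low libraries here were WT replicates 1 and 2 rather than WT replicate 3. CENPV averaged 52.9 ± 8.76 RPKM in QQ embryos and 34.1 ± 5.61 RPKM in WT embryos (SD, n = 3 each), with a log2 fold change of 0.53 ± 0.19 and an adjusted p of 0.233 in edgeR. Without WT replicate 3 the log2 fold change in edgeR was 0.70 with an adjusted p of 0.190. The DESeq2 adjusted p was 0.135 with all libraries, and with 1 library left out it was from 0.0232 (without WT replicate 3) to 0.663 (without QQ replicate 3), passing the threshold in 1 of those 6 fits. The CENPV row is 462 bp long.

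INCENP is the scaffold of the chromosomal passenger complex, which corrects wrong attachments. Its 2813 bp row averaged 44.6 ± 0.780 RPKM in QQ embryos and 46.8 ± 4.40 RPKM in WT embryos (SD, n = 3 each), with a log2 fold change of -0.17 ± 0.12. Its 1342 bp row averaged 12.3 ± 1.04 RPKM in QQ embryos and 14.8 ± 1.87 RPKM in WT embryos, with a log2 fold change of -0.36 ± 0.17 and an adjusted p of 0.265 in edgeR. CENPJ builds centrioles. It had 23.2, 23.9 and 24.9 RPKM in QQ embryos, against 25.8, 24.5 and 33.8 RPKM in WT embryos, and its log2 fold change was -0.33 ± 0.16, and -0.14 without WT replicate 3.

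The transport kinesins that the rule found were weakly expressed beside most of the division genes. However, CENPL (7.64 RPKM), SPC25 (6.89 RPKM), CENPO (6.80 RPKM) and both tested CENPI rows (7.18 and 1.32 RPKM) averaged less than KIF7 and KIF3C. KIF5B, a transport kinesin outside the rule, averaged 62.7 RPKM over the 6 libraries. Among the rows found by the rule, KIF7 and KIF3C averaged 8.41 and 8.18 RPKM over the 6 libraries and KIF17 averaged 2.10 RPKM. Every other row of the class stayed under 1 RPKM in all libraries. KIF7, a kinesin of the primary cilium that regulates hedgehog signalling, had 6.95, 8.02 and 7.80 RPKM in QQ embryos, against 8.797, 7.32 and 11.6 RPKM in WT embryos for its 4886 bp row. WT replicate 3 was the high library, QQ and WT overlapped, and the log2 fold change was -0.39 ± 0.18 with an adjusted p of 0.258 in edgeR, and -0.16 without WT replicate 3. Reads covered 42.41% to 45.66% of this KIF7 row.

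KIF3C, a neuronal member of the heterotrimeric kinesin family, averaged 8.76 ± 0.990 RPKM in QQ embryos and 7.60 ± 1.32 RPKM in WT embryos (SD, n = 3 each), with a log2 fold change of 0.11 ± 0.17. KIF17, a motor of dendrites and cilia, had 27, 46 and 51 reads in QQ libraries, against 34, 23 and 16 reads in WT libraries, with a log2 fold change of 0.69 ± 0.36 and an adjusted p of 0.288 in edgeR. The fold equals that of CENPE, but the standard error is larger and the groups overlapped. KIF5A, a neuronal transport motor, had 29, 34 and 20 reads in QQ libraries and 39, 26 and 35 in WT libraries on its 3266 bp row.

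KIF13A carries endosomal cargo, and its 2 rows differed in sign. The 3543 bp row had 22, 25 and 25 reads in QQ libraries and 36, 26 and 25 in WT libraries, with a log2 fold change of -0.35 ± 0.27. The 4888 bp row had 12, 13 and 9 reads in QQ libraries and 10, 8 and 0 in WT libraries, with a log2 fold change of 0.83 ± 0.67. At such counts, and with at most 7.51% of either row covered, no difference in KIF13A was detectable. KIF25 had 13, 11 and 4 reads in QQ libraries and 11, 10 and 17 in WT libraries.

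The 9 rows below the filter add little. CENPU had a 284 bp row with 0, 8 and 1 reads in QQ libraries and 1, 2 and 0 in WT libraries, and CENPC a 436 bp row with 4, 2 and 3 in QQ libraries and 4, 1 and 0 in WT libraries. CENPI had rows of 3188 bp with 5, 6 and 3 reads in QQ libraries and 6, 1 and 4 in WT libraries, and of 3264 bp with 1, 0 and 0 in QQ libraries and 3, 0 and 0 in WT libraries. KIF7 had rows of 3243 bp with 7, 7 and 9 reads in QQ libraries and 9, 12 and 7 in WT libraries, and of 3249 bp with 1, 0 and 0 in QQ libraries and 0, 0 and 1 in WT libraries. KIF5A had a 2255 bp row with 2, 0 and 1 reads in QQ libraries and 2, 1 and 0 in WT libraries. With the 2 SKA3 rows given above, these are all of the untested rows, and 35 of the 36 genes still had a tested row.

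Over libraries, QQ replicate 2 was highest in a larger share of the members than of all tested rows. WT replicate 3 was the extreme library in the members about as often as in all tested rows. After TMM scaling, QQ replicate 2 was the highest library in 17 of the 40 rows, against 18.9% of all tested rows. WT replicate 3 was the lowest library in 15 of the 40 rows and the highest in 14, against 34.8% and 33.6% of all tested rows. Relative to each row's mean on the log2 scale, the median of the 4 spindle kinesins was -0.0031, 0.29 and 0.14 in QQ replicates 1 to 3 and -0.10, 0.0013 and -0.35 in WT replicates 1 to 3. For the 15 constitutive centromere rows it was -0.05, 0.03 and -0.08 in QQ replicates 1 to 3 and -0.05, 0.07 and 0.10 in WT replicates 1 to 3. By these medians WT replicate 3 was low for spindle kinesins and slightly high for centromere proteins, and for the 4 other rows its median was 0.31. Single rows of both classes went the other way: KIFC1 was highest in WT replicate 3, and CENPC and CENPL were lowest there.

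**Figure D3:**
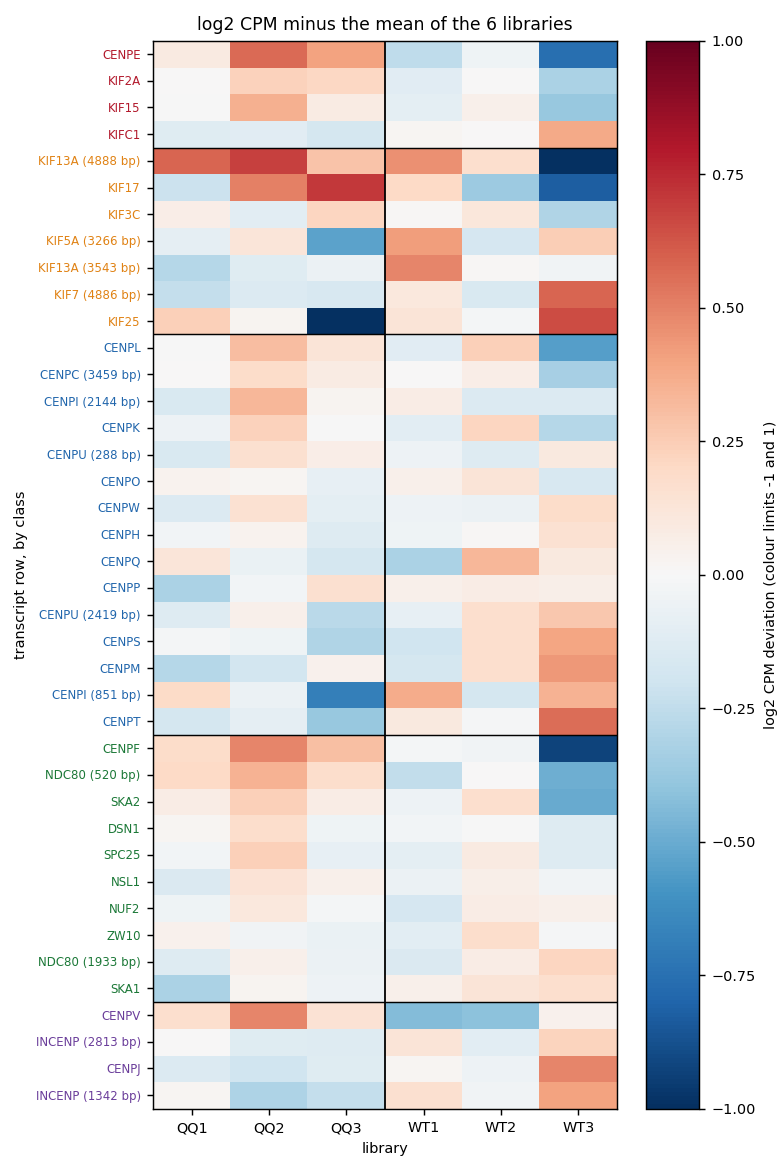
Log2 CPM (TMM-scaled reads per library total) of each tested row in each library minus the row's mean over the 6 libraries, red above and blue below the mean, with colours limited at -1 and 1; QQ libraries are left of the vertical line and WT libraries right of it, and horizontal lines part the role classes. WT replicate 3 holds both deep blue cells (CENPE, CENPF, the 4888 bp row of KIF13A) and red ones (CENPT, KIF7, KIF25, CENPJ).

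Some members followed each other over the 6 libraries. Across log2 CPM, CENPE was most like KIF2A (Pearson r = 0.99) and next the 520 bp row of NDC80 (r = 0.96), and CENPF was most like CENPC (r = 0.97) and next CENPE (r = 0.95). The 1933 bp row of NDC80 instead went with CENPU (r = 0.85), CENPS (r = 0.84) and CENPM (r = 0.83), and NUF2 went with the 1933 bp row of NDC80 (r = 0.78). At the other end, CENPF ran opposite to CENPJ (r = -0.98), and the median over all pairs of tested members was 0.04. These correlations describe 6 libraries that share 1 library standing apart and the same scaling, and they carry no p.

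Transcript length moved with the fold changes to a small degree. Of the 8 members over 4000 bp, which include CENPE, CENPF and KIF15, 6 had a positive log2 fold change with a median of 0.19, where all tested rows of that length had a median of 0.11. Of the 13 members between 1000 and 2000 bp, 4 were positive with a median of -0.22, where all tested rows of that length had a median of -0.06. With each library's trend over length removed, the median of the long members was 0.10 and the log2 fold change of CENPE was 0.49. Without WT replicate 3 the long members had a median of 0.12 and all tested rows of that length 0.06. Over the 40 rows, log2 fold change and log2 length had r = 0.11 (Spearman rho = 0.14), a description across genes with no p.

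**Figure D4:**
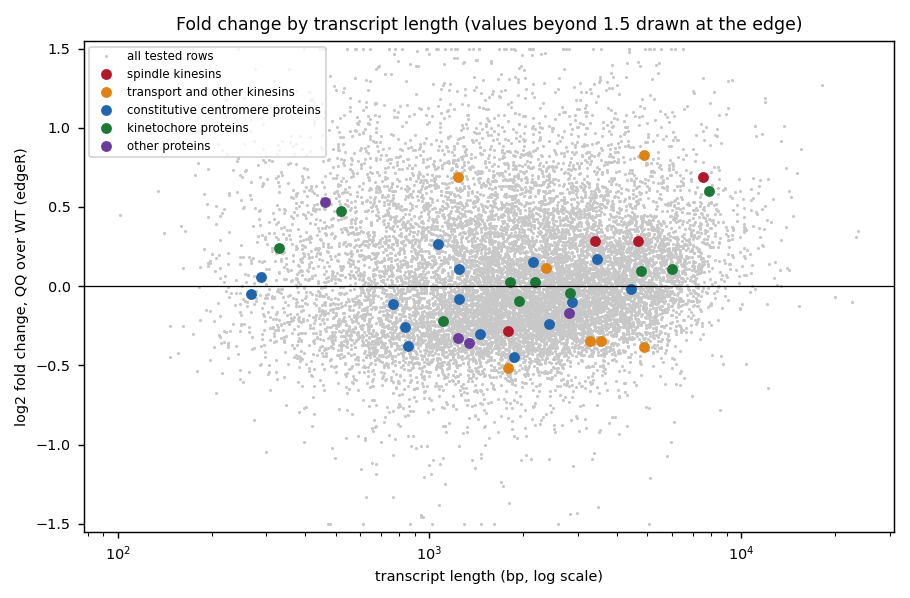
Log2 fold change of QQ over WT from edgeR (vertical axis, values beyond 1.5 drawn at the edge) against transcript length in bp (log scale) for all 13957 tested rows in grey and the 40 kinesin, centromere and kinetochore rows coloured by role. CENPE at 0.69 and CENPF at 0.60, the longest members, lie above 0 at the right, and CENPV at 0.53 and the 520 bp row of NDC80 at 0.47 lie above 0 at short length.

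Mitotic kinesins outside the wording rule had log2 fold changes of either sign. KIF11, the motor that separates spindle poles, averaged 65.6 ± 7.11 RPKM in QQ embryos and 47.95 ± 10.7 RPKM in WT embryos (SD, n = 3 each), with no overlap, a log2 fold change of 0.36 ± 0.15 and an adjusted p of 0.234 in edgeR. KIF2C, a depolymerase of the centromere, averaged 40.1 ± 0.532 RPKM in QQ embryos and 44.3 ± 1.02 RPKM in WT embryos, with no overlap in the other direction and a log2 fold change of -0.24 ± 0.10. KIF20A and KIF23, motors of the late spindle and of cytokinesis, had log2 fold changes of -0.12 ± 0.11 and 0.08 ± 0.10. KIF4A, a chromosome-arm motor, averaged 5.46 ± 0.708 RPKM in QQ embryos and 7.44 ± 1.09 RPKM in WT embryos on its 4371 bp row. Its groups did not overlap, lower in QQ, and the log2 fold change was -0.54 ± 0.18. Reads covered at most 18.2% of that row. CENPA, the histone variant that marks the centromere, averaged 39.7 ± 4.85 RPKM in QQ embryos and 31.4 ± 7.08 RPKM in WT embryos, with a log2 fold change of 0.25 ± 0.19. None of the 6 passed the threshold in edgeR or DESeq2.

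A list of 51 further mitotic genes (cyclins, checkpoint proteins, condensins, centromere loading factors) showed no common direction. Of these 45 had a tested row, 22 with a positive and 23 with a negative log2 fold change, and edgeR and DESeq2 called 0 of them. Some of the rows were covered only in small part. Reads covered at most 3.84% of the FOXM1 row, 10.96% of AURKA, 17.6% of HMMR, 20.19% of LIN54 and 26.74% of PRC1. At an unadjusted p under 0.05 in edgeR, 8 of the 45 were positive and 8 negative, against 11% and 9.29% of all tested rows, and the median was -0.01. The RPKM of QQ and WT did not overlap in 10 rows higher and 5 lower in QQ, against 18.8% and 9.07% of all tested rows. OIP5, a subunit of the complex that prepares centromeres for new CENPA, had 16.2, 18.9 and 17.6 RPKM in QQ embryos, against 9.30, 11.996 and 7.96 RPKM in WT embryos. All QQ embryos lay above all WT embryos, and the OIP5 log2 fold change was 0.75 ± 0.19 with an adjusted p of 0.233 in edgeR. CDC20, the activator of the complex that ends metaphase, had 17.4, 17.7 and 17.5 RPKM in QQ embryos, against 23.2, 18.5 and 23.7 RPKM in WT embryos. All QQ embryos lay below all WT embryos, and the CDC20 log2 fold change was -0.41 ± 0.13 with an adjusted p of 0.233 in edgeR.

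Neuronal and cilium genes were read beside the transport kinesins. Of 20 neuronal genes 13 had a tested row, 6 positive and 7 negative. Their median log2 fold change was -0.20, and without WT replicate 3 the median was 0.02. CRMP1, a neuronal cytoskeleton protein, averaged 59.0 ± 2.44 RPKM in QQ embryos and 68.5 ± 4.87 RPKM in WT embryos (SD, n = 3 each), with a log2 fold change of -0.31 ± 0.12, and GAP43, a growth cone protein, had -0.51 ± 0.26. Of the 6 neuron markers with a row, which summed to 45.2 to 59.7 RPKM in QQ libraries and 54.3 to 62.4 RPKM in WT libraries, STMN2 was at 0 in every library but WT replicate 2. Of 27 cilium genes 23 had a tested row, 8 positive and 15 negative with a median of -0.18. Relative to each row's mean on the log2 scale, their median was -0.009, 0.008 and -0.18 in QQ replicates 1 to 3. In WT replicates 1 to 3 it was 0.095, -0.036 and 0.17, so WT replicate 3 was the highest library. The part of WT replicate 3 in the cilium fold changes was not tested. IFT122 averaged 21.3 ± 1.69 RPKM in QQ embryos and 29.2 ± 3.26 RPKM in WT embryos, and IFT22 averaged 12.9 ± 1.33 RPKM in QQ embryos and 17.7 ± 0.756 RPKM in WT embryos. Both are intraflagellar transport proteins, and their log2 fold changes were -0.55 ± 0.14 and -0.55 ± 0.15. In CRMP1, IFT122 and IFT22 all QQ embryos lay below all WT embryos in RPKM. Among tested rows there was no overlap in 0 neuronal genes higher and 1 lower, and in 3 cilium genes higher and 4 lower. The shares of all tested rows were 18.8% higher and 9.07% lower. In neither list did edgeR or DESeq2 call a gene, and at an unadjusted p under 0.05 in edgeR 1 of the 13 neuronal genes and 6 of the 23 cilium genes lay on the lower side, against 9.29% of all tested rows, and 0 neuronal genes and 1 cilium gene lay on the higher side, against 11%.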

How the data were processed

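Total RNA of 3 QQ and 3 WT embryos was made into TruSeq libraries, per the labels' protocols. The submitters' processing notes name the build Sscrofa10.2, while the aligner, the counter and strand use are each not given in the sources used here. The deposited table holds, per the file headers, the uniquely mapped read count of each Ensembl transcript, the percent of its length with reads, the RPKM and the transcript length. A dash was read as 0, which made the deposited counts of every library sum to its stated total. Coverage is described with the authors' percent values, and levels are means ± SD of the deposited RPKM.

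Counts were tested with edgeR 4.0.16 (R 4.3.3): TMM factors of 0.933 to 1.06, its default filter (10 reads at least, 15 in total), quasi-likelihood fits with no covariate, and Benjamini-Hochberg adjustment over all 13957 tested rows with a threshold of 0.05. The filter kept 40 of the 49 rows. DESeq2 1.42.0 was the second test. Fold changes are QQ over WT on the log2 scale with standard errors. Log2 CPM for the comparison of libraries used TMM factors and a prior count of 2. Chi-square tests of the counts found no pair of libraries that agreed within sampling noise. The steps were tested on simulated data.

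Genes were named from the deposited protein descriptions. Genes of the further lists were found by description or by deposited protein accession, and of the matching rows the one with the most reads was used. Where neither gave a row, a KEGG match was used. Accessions and KEGG matches were looked up in gene tables of Sscrofa11.1, of which only names were used. Per role class, the 3 rows with the highest level, the 2 with the smallest p in each direction and the one with the lowest level were to be named, with all rows below the filter, a set of well-known mitotic genes and the 2 genes with the smallest p of each further list; other members are given by their values for completeness. Members, classes, lists and tests were chosen with earlier results of these data known. Alternatives were no scaling factors, median-ratio factors, no filter, a mean of at least 2 RPKM, a threshold of 0.1, limma 3.58.1 on log2(RPKM + 0.5), removal of each library's length trend (loess, span 0.4), the replicate number as a block, 1 row per gene, and each library left out. DESeq2 with libraries left out and a wider wording rule were added after seeing the data. No sequences are shown, since none were in the sources used here. Figures were drawn with matplotlib 3.10.9.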

Additional observations from a re-analysis of the deposited data

How the results depend on the processing

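With 3 embryos a genotype and 1 WT library that stands apart, small fold changes cannot be resolved, and rows with few reads (KIF13A, KIF25, KIF17, CENPI) are limited by depth; p-values and ratios cover these embryos only. For the single rows of the named members, 545 results over the alternatives kept their direction and their side of the threshold, 12 turned direction and 7 passed the threshold, the last all in DESeq2 (CENPE, CENPF, CENPV and the 520 bp row of NDC80). The cause was not tested. The number of members called higher was 1 in DESeq2, from 0 to 3 in DESeq2 with 1 library left out (3 without WT replicate 2, 2 without WT replicate 3), and 0 in every edgeR and limma alternative. Members called lower stayed at 0 throughout. Over all tested rows, DESeq2 called 103 higher and 8 lower, and edgeR with 1 library left out called from 0 to 2 higher and from 0 to 1 lower. The DESeq2 counts over all rows also moved with the library left out. At an unadjusted p under 0.05 in DESeq2, 1581 of all tested rows were higher with all libraries. That number was 1976 without WT replicate 2 and 964 without WT replicate 3. The members among them numbered 5, 6 and 4.

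Rows near 0 changed sign. CENPH had a log2 fold change of 0.015 without factors and 0.013 in limma, and the 1933 bp row of NDC80 0.0046 and 0.0049. With libraries left out, NUF2 ran from -0.052 to 0.066 in edgeR (-0.043 without WT replicate 1 and -0.018 without QQ replicate 2 in DESeq2), KIF3C from -0.0020 to 0.203, and SPC25 from -0.013 to 0.16 (-0.0066 without QQ replicate 2 in DESeq2); SPC25 had -0.0019 with the length trend removed. Without factors the median of all rows was 0.094. Medians without factors and in limma were 0.062 and 0.065 for all members, 0.015 and 0.017 for centromere proteins, and 0.090 and 0.089 for the further mitotic genes; the kinetochore median without factors was 0.16. At a mean of at least 2 RPKM the median was 0.032 for all members and 0.12 for transport kinesins, for which it was -0.21 with no filter and -0.13 in limma. With 1 library left out, medians ran from -0.071 to 0.039 for all members, from -0.43 to -0.15 for transport kinesins, from -0.053 to 0.018 for the further mitotic genes and from -0.28 to 0.025 for neuronal genes.

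Same-numbered QQ and WT libraries did not stand out from the rest: their deviations correlated at -0.19, 0.21 and -0.06. Those of differently numbered libraries correlated at -0.17 to 0.22. Deviations within a group of 3 sum to 0, so these correlations are tied to each other. Whether same-numbered embryos share a litter or a batch was not tested. A fit with the replicate number as a block called 0 members in either direction, and at an unadjusted p under 0.05 it left 4 members higher and 1 lower, and 1510 and 781 of all rows, against 1540 and 1297 without the block.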

Other observations

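A wider wording rule took in kinesin rows worded otherwise, such as kinesin family member, and the row of CENPA, which is not a kinesin. CENPA, with a log2 fold change of 0.25, is counted in all values of this set. The added rows numbered 33, of which 27 were tested. Of these 18 had a positive and 9 a negative log2 fold change, with a median of 0.24, against a median of -0.0027 over all tested rows. In edgeR 0 of them passed the adjusted threshold, and at an unadjusted p under 0.05 there were 7 on the higher and 2 on the lower side, against 11% and 9.29% of all tested rows, and DESeq2 called 0. The RPKM of QQ and WT libraries did not overlap in 9 rows on the higher and 2 on the lower side, which is 40.7% of the 27, against 27.9% of all tested rows. The following 3 were chosen after their values were seen. KIF5B, the ubiquitous transport kinesin, had 63.6, 80.5 and 76.5 RPKM in QQ embryos, against 54.8, 62.2 and 38.4 RPKM in WT embryos, with a log2 fold change of 0.41 ± 0.16. KIF21A, a regulator of microtubule growth in axons, had 8.19, 9.53 and 10.01 RPKM in QQ embryos, against 5.87, 7.28 and 3.36 RPKM in WT embryos, with a log2 fold change of 0.66 ± 0.23. KIF1B, a carrier of mitochondria and vesicles, had 19.5, 22.999 and 23.7 RPKM in QQ embryos, against 16.5, 16.5 and 6.65 RPKM in WT embryos, with a log2 fold change of 0.65 ± 0.27. All 3 had an adjusted p of 0.233 to 0.234 in edgeR, and in all 3 the groups did not overlap and WT replicate 3 was the lowest library. Relative to each row's mean, the median of the 27 rows was 0.03, 0.10 and 0.09 in QQ replicates 1 to 3 and -0.01, 0.03 and -0.37 in WT replicates 1 to 3 on the log2 scale. The part of WT replicate 3 in this median was not tested.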
